A study of Rattus norvegicus with 36 samples.

Results

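The family of miR-15, miR-16, miR-195 and miR-497 was followed through small RNA libraries of 3 brain regions of rats with a history of escalated cocaine intake. The regions were the nucleus accumbens (NAc) and, in the medial prefrontal cortex, the infralimbic (IL) and prelimbic (PL) areas. Its members were taken by name, as every row of the count table for miR-15a, miR-15b, miR-16, miR-195, miR-497 or miR-322 with either arm of the hairpin (rno-miR-16-5p, rno-miR-15b-5p, rno-miR-195-5p and rno-miR-497-5p among them). This gave 10 mature miRNAs of 723, of which 7 were among the 457 miRNAs that passed the filter on low counts (miR-15b-5p, miR-16-5p, both arms of miR-195, miR-497-5p and both arms of miR-322). No row for miR-15a was used here. The libraries came from 12 male heterogeneous stock (HS) rats, an outbred strain, and each rat gave 1 library per region, 36 in all. The 3 groups of 4 were naïve rats that took no cocaine, rats killed in acute withdrawal (16 h in the sample labels, 18 h in the study's methods) and rats killed after 4 weeks of protracted abstinence. Both cocaine groups had self-administered intravenous cocaine (0.5 mg/kg per infusion) in 10 sessions of 2 h and then, under extended access, 14 sessions of 6 h. The study describes this as escalated intake. Mean age at the start was 63 days in the naïve, 64 days in the withdrawal and 61 days in the abstinence group, so abstinence rats were on average older than withdrawal rats when they were killed. The age at which the naïve rats were killed is not given.

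The model has limits that bear on every value below. All rats were male, the controls were naïve rats without a saline history, and each tissue piece was a bulk dissection in which fewer cells of a type and less RNA per cell cannot be told apart. Libraries held between 6192155 and 18877136 counts (median 10739454), and the RNA integrity number (RIN) ranged from 7.4 to 9.3, with 2 libraries under 8. All PL libraries of withdrawal rats were deeper than all PL libraries of naïve rats. No 2 libraries of the same group and region were identical (54 pairs). Levels are given as CPM, the counts of a miRNA relative to a library total scaled by trimmed mean of M-values (TMM), and differences as log2 fold change (log2FC) with its standard error (SE). P-values between groups rest on the spread between rats of the same group and region, and those between regions on the spread within rats. The main fit for group comparisons has no term for the rat, so the 3 libraries of a rat count as independent.

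A microRNA guides the silencing complex to messenger RNAs mainly through its seed, bases 2 to 8 counted from its 5′ end, so miRNAs that share a seed can share targets. The family is known as a brake on proliferation and survival, with cyclins and the anti-apoptotic gene Bcl2 among its classical targets. Either arm of a hairpin can be loaded, and the arms of 1 hairpin have different seeds. The mature sequences below, from RefSeq for the GRCr8 assembly, are shown because the family is defined by them. Capitals mark the seed, read 5′ to 3′.
miR-16-5p: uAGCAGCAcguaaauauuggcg
miR-15b-5p: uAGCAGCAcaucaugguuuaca
miR-195-5p: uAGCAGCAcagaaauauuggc
miR-497-5p: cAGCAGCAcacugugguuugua
miR-322-5p: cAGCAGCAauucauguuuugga

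All 5 of these 5p miRNAs carried the same seed, and among 693 mature rat miRNAs in the sequence table no miRNA outside the rule did. Beyond the seed the members diverged. Aligned from the 5′ end without gaps, miR-16-5p and miR-195-5p matched at 19 of 21 bases, whereas miR-16-5p and miR-497-5p matched at 11 of 22. The opposite arms, which carry other seeds, are shown because the results below turn on them.
miR-195-3p: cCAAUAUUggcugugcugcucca
miR-322-3p: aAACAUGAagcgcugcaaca

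In GRCr8, a different build from the one the counts were made with, the genes lie in 3 clusters. Mir15b and Mir16 lie 51 bases apart on chromosome 2 (mature miR-16-5p at chr2:155555343-155555364, plus strand) within the gene Smc4, which encodes a condensin subunit. Mir497 and Mir195 lie 255 bases apart on chromosome 10 (mature miR-497-5p at chr10:55450172-55450193 and miR-195-5p at chr10:55450509-55450529, plus strand), in no other annotated gene. Mir322 lies on the X chromosome (mature miR-322-5p at chrX:137726198-137726219, minus strand) within the gene LOC102550366, 220 bases from Mir503.

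miR-16-5p had the most reads of the 5 members that share the seed, and its level differed by region. In the 12 IL libraries it ran from 12.9 to 39.5 CPM (median 22.7), in the PL from 12.9 to 107 CPM (median 41.9) and in the NAc from 49.2 to 185 CPM (median 125). The NAc and IL libraries did not overlap, while the NAc and PL libraries did. Within rats the NAc exceeded both cortical regions in 12 of 12 animals (exact two-sided sign-flip p = 0.000488 for each, the smallest that 12 rats allow). In edgeR's quasi-likelihood model with the rat as a block, log2FC was 2.30 (SE 0.20, adjusted p = 1.02e-09) for NAc against IL and 1.40 (SE 0.20, adjusted p = 2.33e-06) for NAc against PL.

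Of the 7 members tested, 2 were higher and 2 lower in the NAc than in the PL at an adjusted p under 0.05 over all 457 miRNAs. Of all miRNAs tested, 35.2% were higher and 31.9% lower in this comparison. Against the IL, 4 members were higher and 1 lower in the NAc, where 41.6% of all miRNAs were higher and 35% lower. Between the cortical regions, 3 members were lower in the IL and 0 were higher, with a background of 17.1% higher and 18.2% lower. Without an adjustment, 5 members had p under 0.05 in that edgeR comparison, as did 214 of all 457 miRNAs. Of these 5, miR-15b-5p was the member above 0. One of the members counted as higher in the NAc in both comparisons, miR-322-5p, passed the filter on low counts only through its NAc libraries, where it is high, so it had to differ and its count carries no support. Region differences were common in the data as a whole, and the counts of members are to be read against that. The median log2FC of the members was 0.09 for NAc against PL, 0.30 for NAc against IL and −0.50 for IL against PL, and that of all miRNAs was 0.07, 0.10 and −0.02.

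The miR-15b-5p partner of miR-16-5p, made from the same cluster, did not pass in any region comparison of the edgeR model with TMM. It ran from 3.63 to 9.87 CPM in the IL (median 5.33), from 1.53 to 6.73 CPM in the PL (median 4.51) and from 3.26 to 6.01 CPM in the NAc (median 4.44), so that all 3 regions overlapped. Its log2FC was −0.33 for NAc against IL (SE 0.20, adjusted p = 0.127) and 0.43 for IL against PL (SE 0.20, adjusted p = 0.0979). The latter passed with DESeq2's Wald test (0.45, adjusted p = 0.0489) and with a trend on GC content removed (0.84, adjusted p = 0.0232). The ratio of miR-15b-5p to miR-16-5p counts, which does not depend on library scaling, had a median of 0.221 in the IL, 0.0816 in the PL and 0.0395 in the NAc. It was lower in the NAc than in each cortical region in 12 of 12 rats (exact sign-flip p = 0.000488, adjusted p = 0.000837 over the 12 ratio tests between regions for each). Because each miRNA is ligated and amplified with its own efficiency, the size of a ratio is not a ratio of molecules. The same ratio can be compared between libraries only as far as these efficiencies stay alike. Region differences ran with GC content (below), and no ratio here was adjusted for it.

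The clustered miR-497 and miR-195 also differed from each other. miR-195-5p, the member closest to miR-16-5p in sequence, had medians of 8.66 CPM in the IL, 17.3 CPM in the PL and 26.2 CPM in the NAc, within ranges of 4.53 to 17.0, 6.44 to 28.7 and 10.7 to 37.9. It was higher in the NAc than in the IL in 12 of 12 rats (log2FC = 1.43, SE 0.20, adjusted p = 1.12e-06). The PL exceeded the IL in 9 of 12 (log2FC = −1.01, SE 0.20, adjusted p = 0.0045 from edgeR). In the same fit this log2FC was −0.30 in naïve rats (adjusted p = 0.997). It was −1.55 at withdrawal (adjusted p = 0.00747) and −1.19 after abstinence (adjusted p = 0.102). For NAc against PL miR-195-5p was above 0 in 7 of 12 rats and did not pass (log2FC = 0.42, SE 0.20, adjusted p = 0.0695). This value depended on the fit and the rats. In the same edgeR model it was 1.00 in naïve rats (SE 0.35, adjusted p = 0.0177), −0.03 at withdrawal (SE 0.34) and 0.29 after abstinence (SE 0.35). Over all rats it passed with DESeq2's Wald test (0.44), limma-voom with the rat as a random block (0.41), no RIN covariate (0.47), without the libraries of RIN under 8 (0.52), without naïve rat M476 (0.63) and without abstinence rat M363 (0.52), and without abstinence rat M456 it was 0.15.

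miR-497-5p, transcribed beside miR-195-5p, was instead highest in the PL. Its medians were 15.3 CPM in the IL, 25.4 CPM in the PL and 16.6 CPM in the NAc, with ranges of 10.3 to 26.1, 15.7 to 27.9 and 13.4 to 22.3. The ranges overlapped, but the PL exceeded the NAc in 11 of 12 rats (log2FC NAc against PL = −0.48, SE 0.12, adjusted p = 0.00139) and the IL in 11 of 12 (log2FC IL against PL = −0.50, SE 0.12, adjusted p = 0.00541, both from edgeR). In the naïve rats of the same fit neither passed (NAc against PL −0.41, adjusted p = 0.0883, and IL against PL −0.28, adjusted p = 0.997). For NAc against IL miR-497-5p did not pass over all rats (log2FC = 0.02, SE 0.12, adjusted p = 0.891). With library totals in place of TMM, which moved the median of all miRNAs from 0.07 to 0.43 for NAc against PL and from 0.10 to 0.37 for NAc against IL, the miR-497-5p difference between NAc and PL was −0.13 and no longer passed, and miR-195-5p passed (log2FC = 0.76). Under those totals 235 miRNAs were higher and 75 lower in the NAc than in the PL, against 161 and 146 with TMM, and 226 and 124 against the IL, compared with 190 and 160. The ratio of miR-497-5p to miR-195-5p, free of this scaling, was above 1 in 12 of 12 IL, 11 of 12 PL and 1 of 12 NAc libraries. It was not adjusted for GC content.

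**Figure D1:**
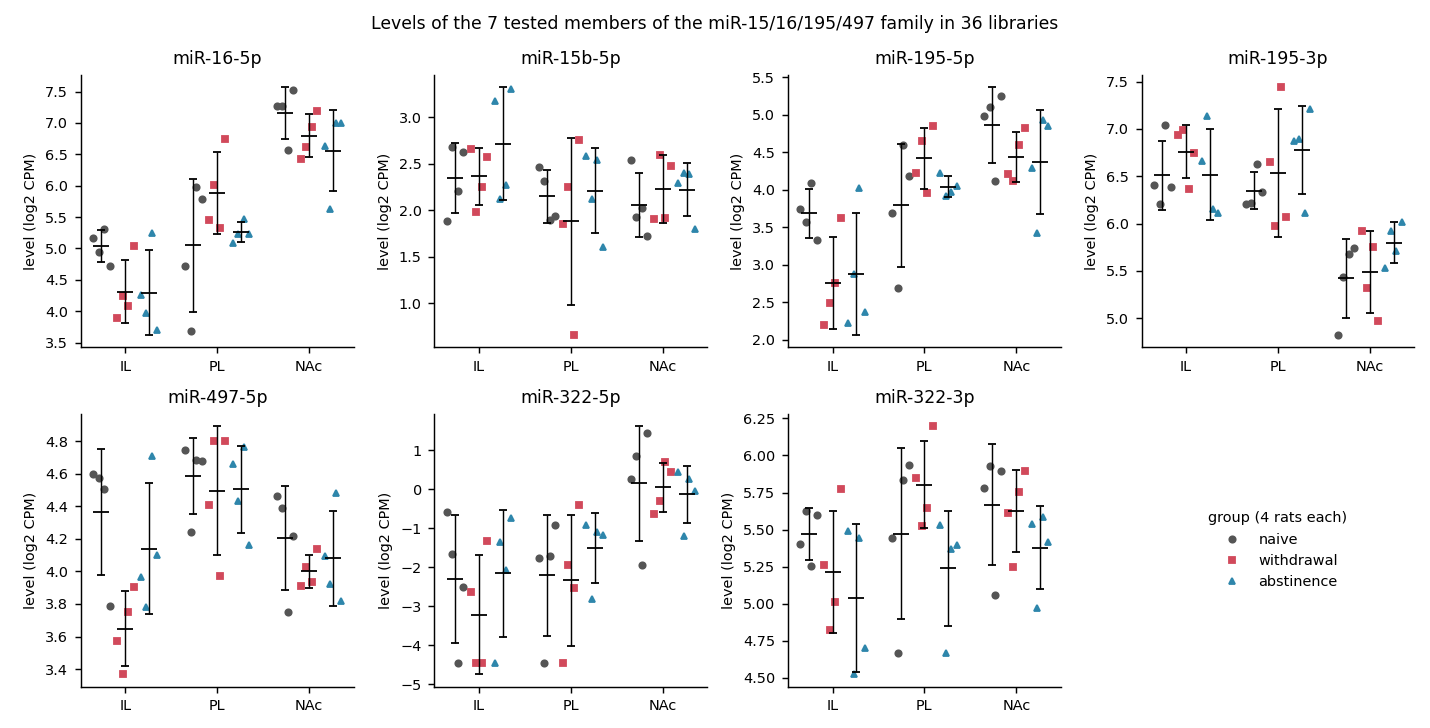
Level in log2 CPM of each of the 7 tested members in every library, by region and group (4 rats a group; bars are the mean and SD). miR-16-5p lies at 49.2 CPM or above in all NAc libraries and at 39.5 CPM or below in all IL libraries, miR-195-3p has the opposite order, and miR-322-5p is at 0 counts in 6 libraries, which are drawn at the value the prior count gives.

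The arms of miR-195 moved in opposite directions between NAc and IL. For NAc against PL the 3p arm alone passed, and for IL against PL the 5p arm alone. miR-195-3p ran from 69.1 to 141 CPM in the IL (median 93.0), from 62.6 to 174 CPM in the PL (median 89.8) and from 28.3 to 64.8 CPM in the NAc (median 51.8). The NAc and IL libraries did not overlap, and the NAc was lower than each cortical region in 12 of 12 rats (log2FC = −1.01, SE 0.15, adjusted p = 4.56e-06 against PL and −1.06, SE 0.15, adjusted p = 1.22e-06 against IL, from edgeR). IL and PL did not separate (log2FC = 0.05, SE 0.15, adjusted p = 0.839).

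Both arms are cut from 1 hairpin, so their ratio in a library compares products of the same precursor. The miR-195 arms differ in GC content (42.9% in the 5p and 52.2% in the 3p arm), and the ratio was not adjusted for it. The 5p to 3p ratio of miR-195 had a median of 0.0967 in the IL (lowest 0.0374, highest 0.227), 0.180 in the PL (0.0871 to 0.430) and 0.446 in the NAc (0.178 to 1.12). In 35 of 36 libraries the 3p arm had more reads, and the exception was the NAc of naïve rat M157. The log2 ratio was higher in the NAc than in the IL by 2.47 ± 0.66 (SD of the differences, n = 12 rats) and than in the PL by 1.46 ± 0.95, in 12 of 12 rats each time (exact sign-flip p = 0.000488, adjusted p = 0.000837). It was lower in the IL than in the PL by −1.02 ± 1.14 on the log2 scale, in 10 of 12 rats (exact sign-flip p = 0.00879, adjusted p = 0.0117).

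miR-322, the rat counterpart of human miR-424, was read mainly from its 3p arm. miR-322-3p had medians of 40.3 CPM in the IL, 46.0 CPM in the PL and 48.4 CPM in the NAc, whereas the seed-bearing miR-322-5p had 239 counts over all 36 libraries, 0 in 6 of them and at most 30. A count of 0 here allows up to 3 counts, or 0.159 to 0.464 CPM depending on the library. miR-322-5p was at 0.216 to 2.64 CPM in the NAc (median 1.15), against 0 to 0.626 CPM in the IL (median 0.161) and 0 to 0.713 CPM in the PL (median 0.255), so the ranges overlapped.
It reached at most 5 counts in an IL library and 9 in a PL library, so it passed the filter on low counts only through the NAc, the region where it is high. Its log2FC for NAc against IL (2.36, SE 0.47) and against PL (1.84, SE 0.45), above 0 in 12 and 11 of 12 rats, is therefore given as a description with no test. miR-322-3p passed against the IL alone and by little (log2FC = 0.30, SE 0.12, adjusted p = 0.027), a call lost without naïve rat M157, withdrawal rat M153 or M172 or abstinence rat M456. The miR-322 5p to 3p log2 ratio rests on the same few 5p reads and is also a description. It differed by 1.93 ± 1.16 (SD) between NAc and PL, above 0 in 12 of 12 rats, by 2.09 ± 1.55 between NAc and IL, above 0 in 10 of 12, and by −0.16 ± 1.73 between IL and PL, above 0 in 5 of 12.

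The 3 members that failed the filter had too few reads for a comparison. miR-15b-3p had 92 counts in all and at most 14 in a library. miR-16-3p had 21 counts in all and at most 3 in a library. miR-497-3p had 2 counts, both in 1 IL library, and 0 in the other 35 libraries.

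**Figure D2:**
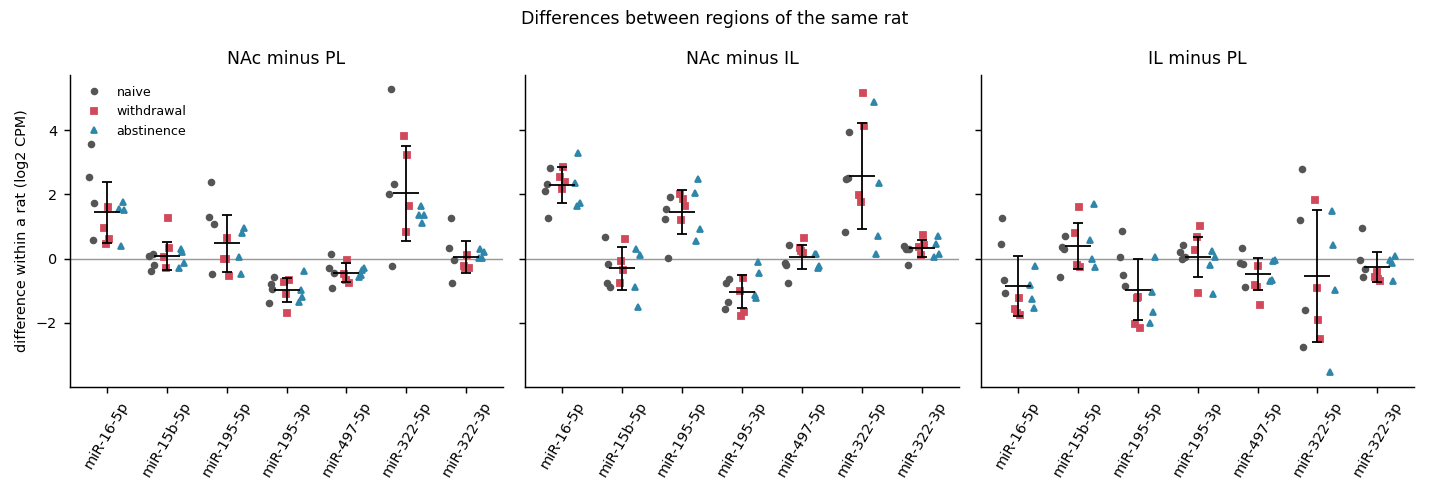
Difference in log2 CPM between regions of the same rat for each tested member (1 point per rat, coloured by group; bars are the mean and SD over 12 rats). miR-16-5p lies above 0 in 12 of 12 rats in both NAc panels and miR-195-3p below 0 in 12 of 12, and in the IL against PL panel the naïve rats lie on both sides of 0 for miR-16-5p while the withdrawal and abstinence rats lie below it.

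**Figure D3:**
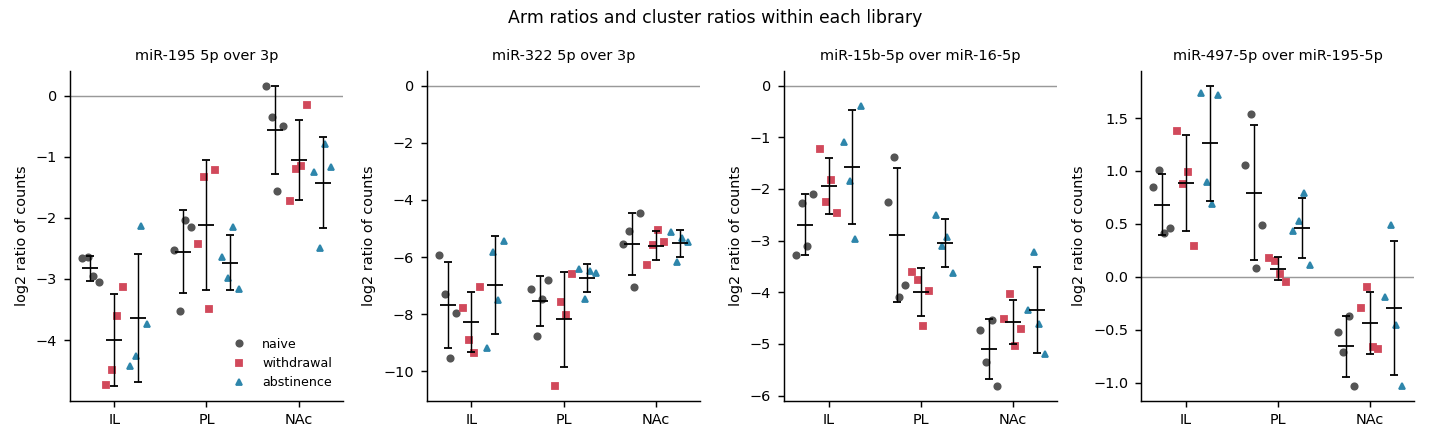
Log2 ratio of counts within each library for the miR-195 and miR-322 arms and for the pairs miR-15b-5p with miR-16-5p and miR-497-5p with miR-195-5p, by region and group (4 rats a group; bars are the mean and SD; the line marks equal counts). The median miR-195 5p to 3p ratio rises from 0.0967 in the IL to 0.180 in the PL and 0.446 in the NAc, and the miR-497-5p to miR-195-5p ratio lies above 1 in 12 of 12 IL and 1 of 12 NAc libraries.

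Differences between regions ran with the base composition of the mature sequences across the data as a whole. Of the 457 miRNAs tested, 411 had a RefSeq sequence, and over these the Pearson correlation of GC content with log2FC was −0.43 for NAc against PL, −0.58 for NAc against IL and 0.57 for IL against PL (a description, since miRNAs of the same libraries are not independent). For NAc against IL the median log2FC was 1.83 for the 62 miRNAs with under 40% GC, 0.61 for the 135 from 40% to under 50%, −0.13 for the 143 from 50% to under 60% and −0.94 for the 71 at 60% or more. The family spans part of this range. GC content was 40.9% in miR-15b-5p and miR-322-5p, 42.9% in miR-195-5p, 45.0% in miR-322-3p, 45.5% in miR-16-5p, 50% in miR-497-5p and 52.2% in miR-195-3p.

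The part of base composition in the region differences of single members was looked at in 1 further fit. In that fit, added after the data were seen, which removed a smooth trend on GC content from every library before the comparison, miR-16-5p was higher in the NAc (log2FC = 1.72, SE 0.15, adjusted p = 6.38e-10 against IL and 1.09, SE 0.15, adjusted p = 1.00e-06 against PL). miR-195-3p was lower (−0.98 and −0.93) and miR-497-5p lower than in the PL (−0.49, adjusted p = 0.000327). In the same fit miR-195-5p was 0.58 above the IL (adjusted p = 0.00052) and −0.09 from the PL, miR-15b-5p was lower in the NAc than in the IL (−1.35, adjusted p = 2.59e-05), and miR-322-3p turned to lower in the NAc (−0.31, adjusted p = 0.00388 against IL). The edgeR tests there had the rat as a block.

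**Figure D4:**
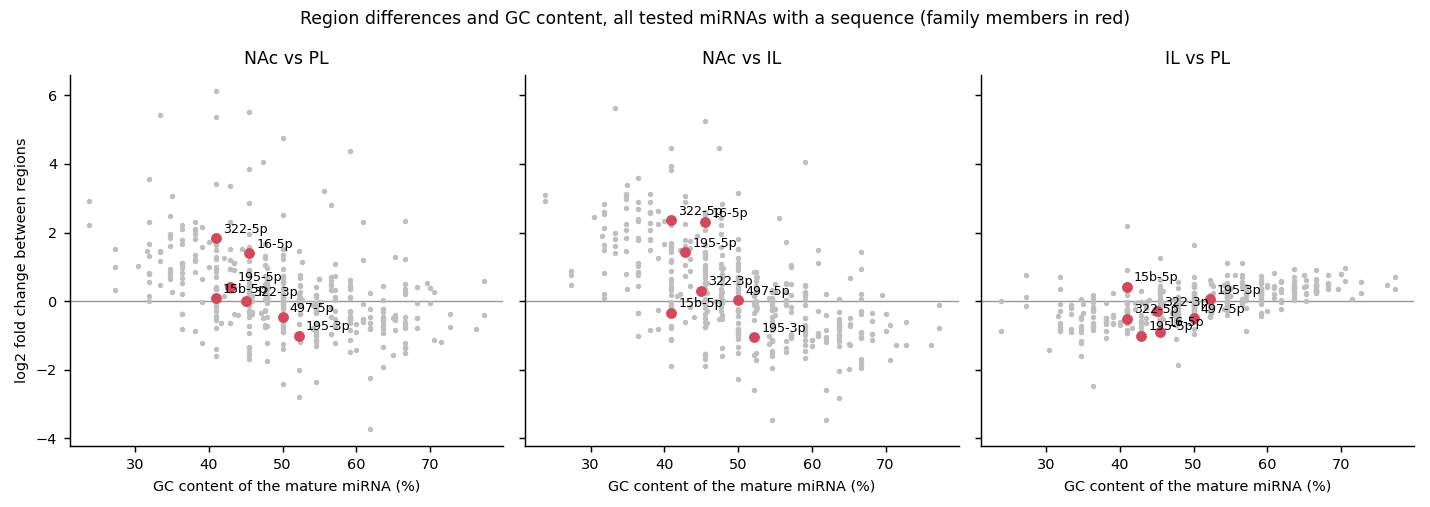
Log2FC between regions against the GC content (%) of the mature miRNA, for the 411 tested miRNAs with a sequence (grey) and the 7 family members (red, named without the miR prefix). The grey points slope down for NAc against PL and NAc against IL and up for IL against PL; miR-16-5p at 45.5% GC lies at 2.30 for NAc against IL, and miR-15b-5p at 40.9% at −0.33.

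Markers of other cell types were read for the whole lists. Of all miRNAs tested, 41.6% were higher and 35% lower in the NAc than in the IL. Against the PL, 35.2% were higher and 31.9% lower. Of 3 endothelial miRNAs (miR-126a-3p, miR-126a-5p and miR-126b), 2 were tested, miR-126b had 0 counts, and both tested were higher in the NAc than in the IL and PL. Their summed level was 816 to 3063 CPM in the IL (median 1420), 730 to 5524 CPM in the PL (median 3193) and 1335 to 9087 CPM in the NAc (median 5022), in the order of miR-16-5p. Of 5 oligodendrocyte miRNAs, 4 were tested, of which 3 were higher in the NAc than in each cortical region and 1 lower than in the IL; their sum had medians of 2359 CPM in the IL, 2743 CPM in the PL and 4326 CPM in the NAc. The part of either in the family's region differences was not tested. Red blood cells are rich in miR-16. The 4 red cell miRNAs (both arms of miR-451 and miR-144) summed to 0 to 0.945 CPM in the IL (median 0.282), 0 to 1.78 CPM in the PL (median 0.553) and 0.470 to 3.23 CPM in the NAc (median 1.19), also in the order of miR-16-5p. The 1 of them tested had log2FC = 1.83 for NAc against IL and 0.97 for NAc against PL. Reads of this list lay near the filter on low counts and were highest in the NAc, so these values are a description. The part of red cells was not tested. The other lists were the white cell and microglial miRNAs (289 to 1135 CPM) and the smooth muscle and pericyte miRNAs (635 to 4376 CPM). The choroid plexus and ependymal miRNAs (1141 to 2844 CPM) and the neuronal miRNAs miR-9, miR-124 and miR-128 (156830 to 610843 CPM) were read as well. Smooth muscle and pericyte medians also had the order of miR-16-5p (1418 CPM in the IL, 1969 CPM in the PL, 2434 CPM in the NAc). Of the 4 tested there, 2 were higher and 2 lower in the NAc than in the IL. Against the PL, 0 of the 4 were higher and 2 lower in the NAc, unlike the order of the medians. For NAc against IL, 1 of 3 white cell and microglial miRNAs was higher and 2 lower. Of 7 neuronal miRNAs 2 were higher and 3 lower, and of 8 choroid plexus and ependymal miRNAs 1 was higher and 1 lower.

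Summed over the 5 members that share the seed, reads came to 37.5 to 85.1 CPM in the IL (median 52.4), 43.1 to 171 CPM in the PL (median 85.8) and 80.7 to 247 CPM in the NAc (median 171). miR-16-5p made up 43.3% of these reads in the IL, 51.4% in the PL and 71.5% in the NAc, and miR-497-5p made up 29.9%, 24.4% and 10.4%. By group the median sum in the IL was 75.4 CPM in naïve, 40.2 CPM in withdrawal and 47.0 CPM in abstinence rats, in the PL 87.6, 105 and 81.5 CPM and in the NAc 215, 153.2 and 158 CPM, given here with no test. The make-up of the reads with this seed thus differed by region as well as their sum.

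The study's main question was which miRNAs change at acute withdrawal and after protracted abstinence. A miRNA was called there where the fold change reached 1.5 and the unadjusted p was under 0.05 (edgeR, all 36 libraries, RIN as a covariate), and p adjusted over the 457 miRNAs is given beside. At acute withdrawal in the IL, 1 of 7 members was called, miR-497-5p, against 6.35% of all miRNAs. Its levels were 24.2, 23.8, 22.7 and 13.8 CPM in the naïve rats (M157, M378, M476 and M480) and 11.8, 10.3, 13.4 and 14.9 CPM in the withdrawal rats (M153, M366, M172 and M154). Of the naïve rats 3 lay above all withdrawal rats, and M480 lay among them. miR-497-5p was lower at withdrawal with log2FC = −0.65 (SE 0.22, p = 0.0056, adjusted p = 0.489; exact permutation p = 0.0571, 4 rats against 4), so it did not pass the adjustment. The call was lost with the 12 IL libraries fitted alone (log2FC = −0.56, adjusted p = 0.52, edgeR) and without naïve rat M378 (−0.57), and with the GC trend removed the change fell just short of 1.5-fold (−0.58).

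After 4 weeks of abstinence miR-497-5p stood at 15.6, 13.7, 26.1 and 17.1 CPM in the IL (rats M170, M363, M472 and M456). These values overlapped with both other groups. Against naïve rats the log2FC was −0.10 (SE 0.22, adjusted p = 0.878), and against withdrawal it was 0.55 (SE 0.21, adjusted p = 0.529, edgeR; exact permutation p = 0.0571), under the 1.5-fold threshold. In the PL (15.7 to 27.9 CPM over all 12 rats) and the NAc (13.4 to 22.3 CPM) its log2FC between groups lay between −0.26 and 0.20.

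miR-195-5p and miR-16-5p in the IL had log2FC of like size to miR-497-5p but a wider spread, and neither was called here. At the same thresholds the study, with limma-voom, lists both miR-497-5p and miR-195-5p as lower in the IL at withdrawal. With limma-voom here miR-195-5p was still not called. Apart from fits with a rat left out, it was called only without the RIN covariate. Why the lists differ was not tested. miR-195-5p stood at 13.4, 11.8, 17.0 and 10.02 CPM in naïve rats and 4.53, 5.55, 6.70 and 12.2 CPM at withdrawal (log2FC = −0.69, SE 0.37, adjusted p = 0.489, edgeR; exact permutation p = 0.0857). Only withdrawal rat M154 reached the naïve range. Abstinence rats were at 4.64, 7.31, 16.1 and 5.15 CPM (log2FC against naïve = −0.44, SE 0.37). miR-16-5p stood at 35.9, 30.8, 39.5 and 26.3 CPM in naïve rats and 14.7, 18.9, 16.9 and 32.7 CPM at withdrawal (log2FC = −0.54, SE 0.39, adjusted p = 0.548, edgeR; exact permutation p = 0.0857), again with M154 alone inside the naïve range. Without M154, 3 members were called in this comparison (miR-497-5p, miR-195-5p with log2FC = −1.03 and miR-16-5p with −0.82). The share of all miRNAs called without M154 was not taken, so this count has no background to be read against.

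The arm ratio of miR-195 in the IL separated the naïve and withdrawal rats. The 5p to 3p ratio was 0.159, 0.160, 0.129 and 0.121 in naïve rats and 0.0374, 0.0443, 0.0819 and 0.114 in withdrawal rats, without overlap (log2 difference −1.17, exact permutation p = 0.0286, the smallest that 4 rats against 4 allow). Of 36 such tests of 4 ratios between groups this was the 1 with p under 0.05, and it did not pass the adjustment over them (adjusted p = 0.475). Abstinence rats had 0.0465, 0.0522, 0.227 and 0.0753 and overlapped with both. The ratio was not adjusted for GC content, which correlated across miRNAs with the withdrawal change in the IL (r = 0.29).

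In the PL at acute withdrawal 0 of 7 members were called, where 4.81% of all miRNAs were. miR-16-5p, the member with the lowest p, stood at 26.4, 12.9, 62.97 and 55.5 CPM in naïve rats, at 43.7, 64.5, 40.1 and 107 CPM in withdrawal rats and at 34.1, 37.4, 44.3 and 37.6 CPM in abstinence rats. The groups overlapped, and the abstinence rats lay closest together. For withdrawal against naïve the log2FC was 0.67 (SE 0.38, p = 0.0829, adjusted p = 0.624, edgeR; exact permutation p = 0.229). It was called with limma-voom (log2FC = 0.77, adjusted p = 0.598), also with the rat as a random block (adjusted p = 0.594), and with the GC trend removed (0.64, adjusted p = 0.693), so no fit passed the adjustment.

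In the other comparisons 0 of 7 members were called. The background there was 2.84% for withdrawal against naïve in the NAc, 8.32%, 2.41% and 1.09% for abstinence against naïve in the IL, PL and NAc, and 6.35%, 3.5% and 0.875% for abstinence against withdrawal in the IL, PL and NAc. Over all 9 comparisons and 7 members, 2 of 63 edgeR tests had an unadjusted p under 0.05, both of miR-497-5p in the IL, and the lowest adjusted p was 0.489. Of all 457 miRNAs in the IL, 38 had such a p for withdrawal against naïve and 37 for abstinence against withdrawal. In the NAc at withdrawal miR-195-5p stood at 31.6, 34.2, 17.3 and 37.9 CPM in naïve rats and 18.4, 17.3, 24.2 and 28.2 CPM in withdrawal rats (log2FC = −0.51, SE 0.35, adjusted p = 0.84, edgeR; exact permutation p = 0.229), with the groups overlapping through naïve rat M476.

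**Figure D5:**
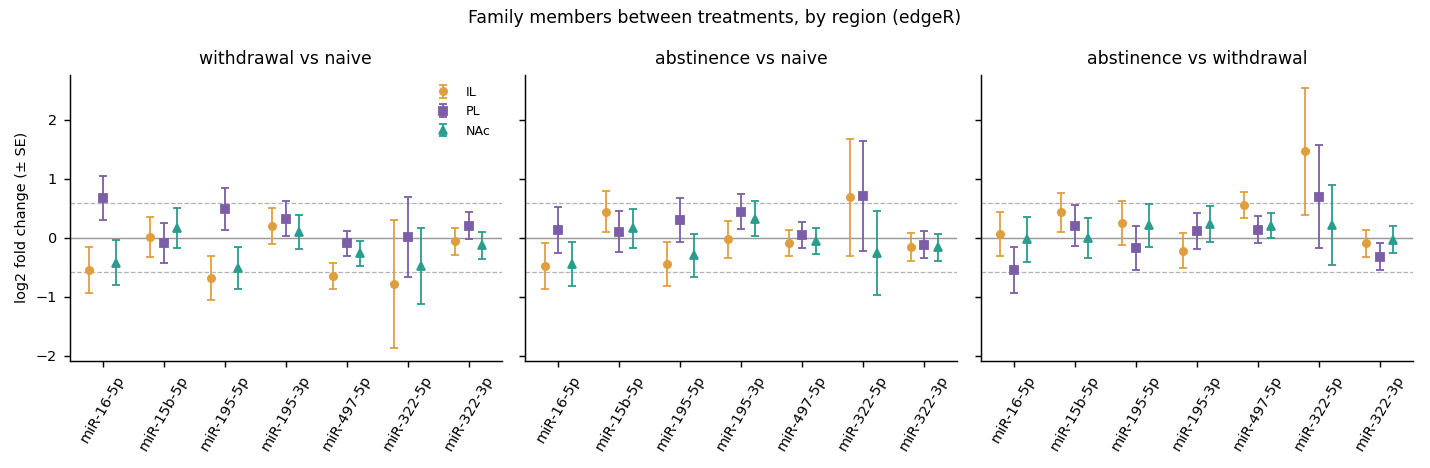
Log2FC ± SE of the 7 tested members between groups in the IL, PL and NAc (edgeR, 4 rats a group; dashed lines mark a fold change of 1.5). For withdrawal against naïve miR-16-5p lies at −0.54 in the IL and 0.67 in the PL, miR-195-5p at −0.69 and 0.48, and miR-497-5p at −0.65 and −0.10; the SEs of miR-322-5p, the member with the fewest reads, are the widest.

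At withdrawal the values of miR-16-5p and miR-195-5p lay below naïve in the IL and above it in the PL, and the difference of these changes was tested directly. For IL against PL it was −1.22 for miR-16-5p (SE 0.54, adjusted p = 0.443) and −1.17 for miR-195-5p (SE 0.51, adjusted p = 0.443), and for NAc against PL it was −1.10 for miR-16-5p (SE 0.53, adjusted p = 0.501, all from edgeR), each with an unadjusted p under 0.05. None of the 63 such tests over members passed the adjustment. Of all 457 miRNAs, 48 had an unadjusted p under 0.05 for IL against PL and 34 for NAc against PL. With the rat as a fixed block the miR-16-5p value for IL against PL was −1.37 (adjusted p = 0.291).

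Seen within rats, the IL minus PL difference of miR-16-5p in log2 CPM was −0.01 ± 1.06 (SD, n = 4) in naïve rats, of which 2 were above 0, −1.57 ± 0.24 at withdrawal and −0.96 ± 0.57 after abstinence, with 0 of 4 above 0 in each cocaine group. For miR-195-5p it was −0.11 ± 0.75, −1.66 ± 0.51 and −1.17 ± 0.90, with 2, 0 and 1 of 4 rats above 0. In the naïve rats of the full edgeR fit 0 of 7 members passed for IL against PL (log2FC = −0.17 for miR-16-5p, −0.30 for miR-195-5p and −0.28 for miR-497-5p), as 0% of all 457 miRNAs did in either direction, with 3 at an unadjusted p under 0.05. At withdrawal 3 members were lower in the IL (−1.54, −1.55 and −0.80), where 17.3% of all miRNAs were lower and 14.9% higher. After abstinence 0 of 7 members passed (−0.97, −1.19 and −0.40), as 0% of all miRNAs did, with 125 at an unadjusted p under 0.05. The pattern was thus shared with many other miRNAs.

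Other measures moved with these differences. Over the 411 miRNAs with a sequence, GC content correlated with the withdrawal change at r = 0.29 in the IL, −0.37 in the PL and 0.43 in the NAc, and with the difference of changes at r = 0.49 for IL against PL and 0.60 for NAc against PL. With the GC trend removed, the difference for IL against PL was −1.03 for miR-16-5p (adjusted p = 0.58, edgeR) and −0.85 for miR-195-5p (adjusted p = 0.58, edgeR). The summed endothelial level in the IL was 1544 to 3063 CPM in naïve, 957 to 2020 CPM in withdrawal and 816 to 2001 CPM in abstinence rats, and in the PL 730 to 5524 CPM in naïve and 3287 to 4726 CPM in withdrawal rats. No endothelial marker was called between groups. In the PL at withdrawal 2 of 3 tested white cell and microglial miRNAs were called lower (median log2FC of the list −0.60), with a summed level of 646 to 1135 CPM in naïve and 447 to 628 CPM in withdrawal rats. There, 1 of 4 tested oligodendrocyte miRNAs was called higher and 1 of 7 neuronal miRNAs lower, and in the NAc at withdrawal 1 of 4 oligodendrocyte miRNAs was called lower. The part of these cells in the family's values was not tested.

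Relatives by sequence are shown because their seeds are near that of the family without matching it. In miR-503-5p the seed differs at its last base, and in miR-103-3p and miR-107-3p the same 7 bases start at position 1. Capitals mark the seed of miR-503-5p and, in the others, bases 1 to 7.
miR-503-5p: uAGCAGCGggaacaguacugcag
miR-103-3p: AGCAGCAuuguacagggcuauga
miR-107-3p: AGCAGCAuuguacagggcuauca

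miR-503-5p, encoded beside miR-322, had medians of 6.86 CPM in the IL, 7.52 CPM in the PL and 6.67 CPM in the NAc and did not pass between regions (log2FC NAc against PL = −0.20, SE 0.13, adjusted p = 0.2, edgeR). miR-103-3p was higher in the NAc than in the PL (log2FC = 0.45) and the IL (0.49), while miR-107-3p had 0.08 and 0.27 and did not pass. None of the 3 was called between groups.

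The X-linked miRNAs around miR-322 went in both directions. For NAc against PL the log2FC was 1.67 for miR-450a-5p (SE 0.32, adjusted p = 8.13e-05) and 2.29 for miR-542-3p (SE 0.45), the latter from at most 42 counts in a library and with medians of 0.235 CPM in the IL and 0.357 CPM in the PL against 1.96 CPM in the NAc, so given without a test. It was −0.90 for miR-351-5p (SE 0.10, adjusted p = 9.24e-08), −1.34 for miR-351-3p and −0.96 for miR-503-3p, all lower in the NAc by edgeR. miR-542-5p did not pass (0.18), and miR-450a-3p failed the filter.

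The patterns of single members over all 36 libraries were set beside those of the 450 tested miRNAs outside the family, as a description that shares libraries, depth and base composition. Those most like miR-16-5p in log2 CPM were miR-26b-5p and miR-27b-3p (Pearson r = 0.98 each) and miR-384-5p (0.97), and those most like miR-195-5p were miR-22-5p (0.95), miR-26a-5p and let-7f-5p (0.93 each). For miR-497-5p they were miR-23a-3p (0.82), miR-124-5p and miR-199a-3p (0.67 each), for miR-15b-5p miR-1306-5p (0.81), miR-3085 (0.77) and miR-93-5p (0.74), and for miR-322-5p miR-29a-3p (0.81), miR-135b-5p and miR-137-3p (0.79 each). Within the family r was 0.92 between miR-16-5p and miR-195-5p, which lie on different chromosomes, 0.48 between the clustered miR-497-5p and miR-195-5p, and −0.27 between the clustered miR-15b-5p and miR-16-5p. With group and region means removed these were 0.91, 0.66 and −0.02.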

How the data were processed

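Small RNA from 36 tissue samples (12 rats, 3 regions) was sequenced by the authors, who aligned and quantified the reads of each miRNA arm in CAP-miRseq (version not given in the sources used here) and deposited raw counts. The study's methods and the submitters' processing notes name different genome builds (mRatBN7.2, also called rn7, in the notes), which could change which reads were assigned. Ligation efficiency differs between miRNAs, so levels of different miRNAs are not compared as molecules.

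The deposited counts were filtered with filterByExpr (minimum count 10, minimum total 15, by the 9 combinations of group and region), scaled by TMM and tested with edgeR 4.0.16 (R 4.3.3) by quasi-likelihood, with RIN as a covariate and all 36 libraries in 1 fit. The authors used limma-voom, which was an alternative (limma 3.58.1), as was DESeq2 1.42.0. Group comparisons were called at 1.5-fold and unadjusted p under 0.05, the study's rule, and region comparisons, with the rat as a fixed block and averaged over groups, at a Benjamini-Hochberg adjusted p under 0.05. Exact permutation tests (4 rats against 4) and exact sign-flip tests (12 rats) were two-sided and used log2 CPM with a prior count of 0.5, and ratios used counts plus 0.5. The fits were tested on simulated data.

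Regions are paired because each rat gave all 3. Deviations from group means in libraries of the same rat correlated with a median r of 0.27 (NAc and PL), 0.15 (NAc and IL) and 0.27 (IL and PL). Genes named outside the family were those with a near seed, those beside miR-322, and the 3 miRNAs most correlated with each tested 5p member. Members, marker lists and tests were chosen with earlier results of these data known. The alternatives removing GC content (loess of each library, span 0.75) and, for regions, libraries of RIN under 8 were chosen after seeing the data. Library totals limit the precision of low members, and the limit that 0 counts allow covers counting error only.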

Additional observations from a re-analysis of the deposited data

Results flagged for a closer look

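In 3 of 63 groups of 4 rats a sample stood apart from the other 3 by Dixon's ratio at the 95% critical value, where chance gives about 1 in 20 groups. miR-497-5p was at 3.79 log2 CPM in the IL of naïve rat M480, below the other naïve rats, which narrows the gap to the withdrawal rats. It was at 4.24 log2 CPM in the PL of naïve rat M378, again the lowest. miR-322-5p was at −2.83 log2 CPM in the PL of abstinence rat M363, a value set by very few reads.

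The change at withdrawal differed between regions at an unadjusted p under 0.05 in 3 of 63 tests, none of which passed the adjustment. Of all 457 miRNAs, 34 had such a p between NAc and PL and 48 between IL and PL. The difference was −1.10 for miR-16-5p between NAc and PL, −1.22 for miR-16-5p between IL and PL and −1.17 for miR-195-5p between IL and PL.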

How the results depend on the processing

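The number of members called for withdrawal against naïve in the IL was 1 and became 2 without the RIN covariate, 0 with the 12 IL libraries alone and 0 with GC content removed, and ranged from 0 (without naïve rat M378) to 3 (without withdrawal rat M154) when a rat was left out. In the PL it was 0 and became 1 with limma-voom, 1 with limma-voom and the rat as a random replicate block and 1 with GC content removed, with 0 to 1 when a rat was left out (1 without naïve rat M476 or M480 or withdrawal rat M153 or M172), and in the NAc it was 0 and became 1 with no filter on low counts. For abstinence against withdrawal in the IL it was 0 and became 1 with library totals, 1 with no filter and 1 without libraries of RIN under 8, with 0 to 2 when a rat was left out (2 without withdrawal rat M154), and for abstinence against naïve in the IL 0 to 2 (2 without abstinence rat M472). For IL against PL it was 3 and became 5 with DESeq2's Wald test and 0 in naïve rats alone. For NAc against IL it was 5 and became 3 with a filter of 10 CPM in 4 libraries, which left 5 members to test, and for NAc against PL it was 4, with 3 to 5 over all alternatives. miR-322-3p reversed for NAc against IL, to −0.31, with GC content removed. With the rat as a fixed block the difference of changes at withdrawal was −1.37 for miR-16-5p and −1.25 for miR-195-5p between IL and PL, and again no member passed the adjustment. For single members, leaving out a rat kept the call, or its absence, in 734 cases, with 17 gained and 5 lost calls. The other settings kept it in 1120, with 20 gained, 11 lost and 1 reversed. Direction was compared only for members called in the main fit. Members not called could change sign, as miR-15b-5p did for NAc against PL (0.09 in the main fit, lowest −0.51). The cause of these changes was not tested. The share of all miRNAs called with a rat left out was not taken. Depth limits miR-322-5p and the 3 untested members most.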
